A study of Danio rerio with 6 samples.

Results

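The genes described here are those that copy DNA and divide the cell. A list of 40 symbols covers the helicase that opens replication origins, the supply of DNA building blocks, the cyclins and their kinases, the mitotic kinases and checkpoint, the spindle, and the proteins that fold and part chromosomes. Rows were chosen by matching the gene symbols of a name table to the list, ignoring case, and a symbol without its paralogue letter also counted. This gave 41 rows of the 35117 in each file, for 39 of the 40 symbols, since MCM6 and RRM2 each name 2 rows. The gene identifier paired with ube2c was not among the rows used here, so that gene was not analysed here. The matching used symbols alone, but the list was drawn up with earlier results of these data known. All 41 rows passed the filter on low counts.

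The study sorted 2 cell populations from the intestine of wild-type zebrafish larvae of the EK strain, 6 days after fertilization, and measured their RNA by sequencing in 3 libraries each. All larvae, those behind both groups, had been gavaged at 5 days with 1 to 2 nl of Alexa Fluor 568 dextran, a fluorescent sugar polymer, at 2.5 mg/ml, and were dissociated 24 hours later. Intestinal epithelial cells (IEC) were sorted as positive for the cldn15la-GFP reporter, and lysosome rich enterocytes (LRE), which take up luminal protein into large lysosomes, as positive for GFP and for the dextran. The reporter marks cells by the activity of 1 promoter, and whether the IEC gate left out cells holding dextran is not stated. Nothing in the labels ties a library to its own pool of larvae, and a p-value here therefore reflects how far these 6 libraries scatter, a scatter that may be technical.

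Total counts ran from 39590129 to 53250871 per library, of which the members took between 0.0534% and 0.229%. The labels held against their markers, although these lists were chosen with earlier results of these data known. All 7 listed LRE markers were higher in LRE (adjusted p under 0.05), against 2.30% of all genes. CUBN, the receptor cubilin, had 3.24 to 5.77 CPM in IEC and 366 to 640 CPM in LRE. The fish's own gene cldn15la, after which the reporter is named, was abundant in both groups. It had 3036 to 5298 CPM in IEC and 2593 to 3011 CPM in LRE. FABP2, an enterocyte fatty acid carrier, was lower in LRE (log2 fold change -2.21 ± 0.42, SE, edgeR adjusted p = 0.0304). CPM is the count of a gene scaled to a common library size, with TMM factors that correct for differences in RNA makeup. LRE library 1 stood apart: 19396 genes had a read there, where the other libraries had 22974 to 25610 such genes, and 21.7% of its counts came from 13 mitochondrially encoded genes, against 11.4% in LRE 2, 6.19% in LRE 3 and 4.18% to 8.73% in the IEC libraries. IEC library 1 differed from the other IEC libraries in its summed levels of ribosomal protein genes and enteroendocrine markers, given below.

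As background, cells that enter the cycle load the MCM helicase onto replication origins with the help of ORC and CDC6, fire those origins under S-phase cyclin kinases, and copy DNA with the sliding clamp PCNA. Mitosis then needs cyclin B with CDK1, the Aurora and Polo kinases, condensin and topoisomerase, and the anaphase promoting complex that ends it. Most of these transcripts are made in cycling cells and are kept low in cells that have left the cycle. In the gut they mark proliferating precursors rather than differentiated enterocytes.

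The comparison of LRE with IEC gives the level of these transcripts in the LRE libraries relative to the IEC libraries. Nearly the whole set lay lower in LRE, by less than 2-fold for most members, and no single member passed the test across all genes. The summed abundance of the members was 1319, 1519 and 1638 CPM in IEC libraries 1, 2 and 3, and 772, 907 and 915 CPM in LRE libraries 1, 2 and 3. The groups did not overlap. As a share of unscaled counts the groups also stayed apart, but the nearest libraries were closer, with IEC 1 at 0.106% and LRE 3 at 0.0936%. The means were 1492 ± 161 CPM in IEC and 865 ± 80.4 CPM in LRE (mean ± SD, n = 3 each), a ratio of 1.72. In a sorted bulk sample, fewer dividing cells and less of these transcripts per cell cannot be told apart.

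Of the 41 members, 0 were higher and 0 were lower in LRE by edgeR's quasi-likelihood test with a Benjamini-Hochberg adjusted p under 0.05. Among all 20979 genes tested, 0.910% were lower and 2.30% higher by the same rule. At an unadjusted p under 0.05, 16 members were lower and 0 higher, a share of 39.0% against 7.19% of all genes for lower calls and 9.79% for higher calls. The log2 fold change (LRE minus IEC) was below 0 in 38 of the 41, or 92.7%, against 53.0% of all genes. The median log2 fold change was -0.81 for the members and -0.06 for all genes tested. The quartiles of the members lay at -0.997 and -0.51, and 10 of the 41 were lower by 2-fold or more, against 15.2% of all genes.

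The counts depended on the tool. DESeq2 called 9 members lower and 0 higher, where it called 4.33% of all genes lower and 5.98% higher. Limma voom called SMC4 alone lower and 0 members higher, against 1.38% and 2.89% of all genes. The labels state no pairing, but libraries of equal replicate number deviated together in these data. With that number as a block, edgeR called 2 members lower, SMC4 and mki67, and 0 higher, against 1.75% and 3.76% of all genes. Scaling by library totals alone moved the median of all genes by -0.40 and that of the members to -1.20. Relative to all genes the members' median was -0.74 under that scaling and -0.75 under TMM.

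**Figure D1:**
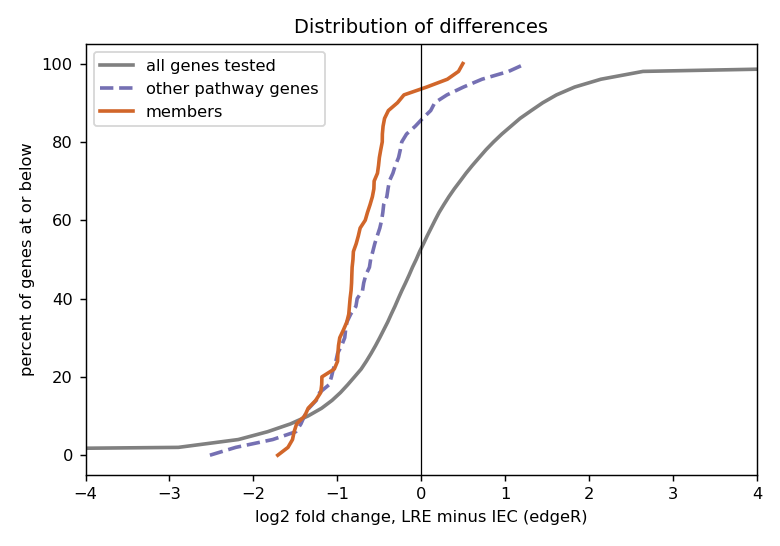
Percent of genes (vertical axis) at or below each log2 fold change of LRE minus IEC (horizontal axis), for the 41 members, for 210 other tested genes of replication and division, and for all 20979 genes tested. The members' curve is steep. From 10% upward it lies to the left of the curve of all genes, with its median at -0.81 against -0.06. At 8% and below it lies to the right, for example at 2% with -1.59 for the members and -2.89 for all genes.

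In 19 of the 41 members all 3 LRE values lay below all 3 IEC values, which was so for 13.8% of all genes. In 0 members did all LRE values lie above all IEC values, against 13.0% of all genes. Between libraries of equal number, LRE was below IEC in all 3 pairs for 27 members, against 26.6% of all genes, and above it in all 3 pairs for 1, an RRM2 row, against 21.7% of all genes. The overlap came in large part from IEC library 1, which held the lowest IEC value in 23 of the 40 members with a read in every library. Without IEC 1, 34 members did not overlap (20.6% of all genes), without LRE 1 it was 23 (19.8%), and without both libraries numbered 1 it was 38 (27.8%). Leaving out a library can only raise such a count, and these libraries were picked after the values were seen. The rise is therefore a description and not a test, and omission of the other libraries was not counted.

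**Figure D2:**
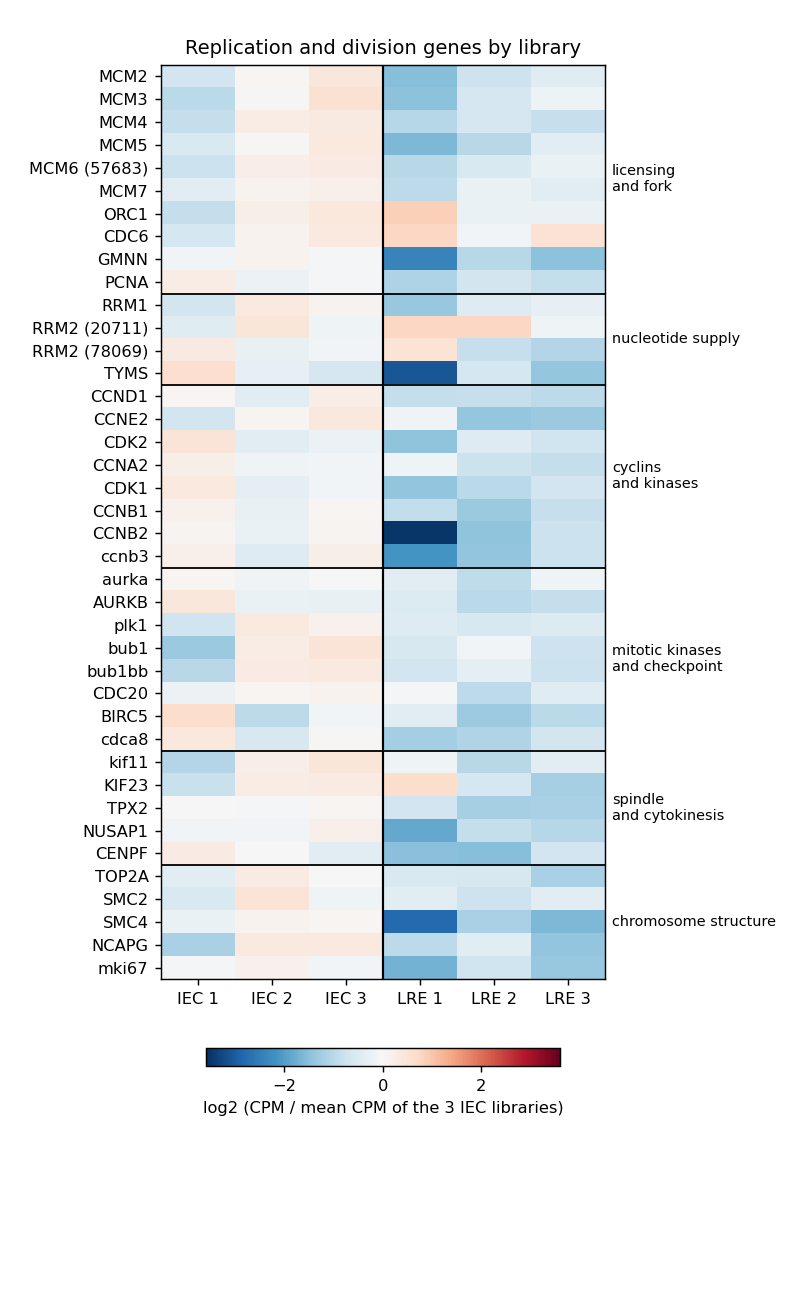
Heat map of the 40 members with a read in every library (rows, grouped by role) in the 6 libraries (columns); colour is the log2 ratio of the CPM to the mean CPM of the 3 IEC libraries, and blue is lower. Numbers in brackets are the last digits of the identifier where a symbol names 2 rows. The LRE columns are mostly blue, IEC 1 is blue for the MCM genes, and in LRE 1 red marks ORC1, CDC6, KIF23 and both RRM2 rows.

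Origin licensing was led by the MCM subunits, which form the replicative helicase. MCM4 had 49.9, 107.6 and 112.6 CPM in IEC 1, 2 and 3, and 44.4, 59.1 and 50.8 CPM in LRE 1, 2 and 3. Its log2 fold change was -0.81 ± 0.35 (SE, 95% interval -1.60 to -0.02, edgeR adjusted p = 0.279). IEC 2 and IEC 3 lay above all LRE libraries, while IEC 1 lay among them. The same shape held for the whole complex. Summed over the 7 rows of MCM2 to MCM7, the level was 275 CPM in IEC 1, 482 in IEC 2 and 561 in IEC 3, against 188, 288 and 327 CPM in LRE 1, 2 and 3. Thus 0 of the 7 rows were free of overlap, against 13.8% of all genes. Between libraries of equal number, 6 were lower in LRE in all 3 pairs, against 26.6% of all genes. The log2 ratios of the sums by pair were -0.55, -0.74 and -0.78.

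The other MCM subunits with substantial counts spread little around that value. The log2 fold change was -0.92 ± 0.38 for MCM5 and -0.83 ± 0.38 for MCM2 (SE). It was -0.67 ± 0.45 for MCM3, -0.57 ± 0.35 for MCM6 (ENSDARG00000057683) and -0.51 ± 0.29 for MCM7. None of these passed, with adjusted p (edgeR) from 0.259 to 0.516. The second MCM6 row (ENSDARG00000033231) had 43, 0 and 63 reads in IEC and 0, 16 and 22 in LRE, where a count of 0 allows up to 3, and its interval of -5.76 to 2.65 leaves its direction undetermined. Reads of near-identical genes may be split between such rows.

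**Figure D3:**
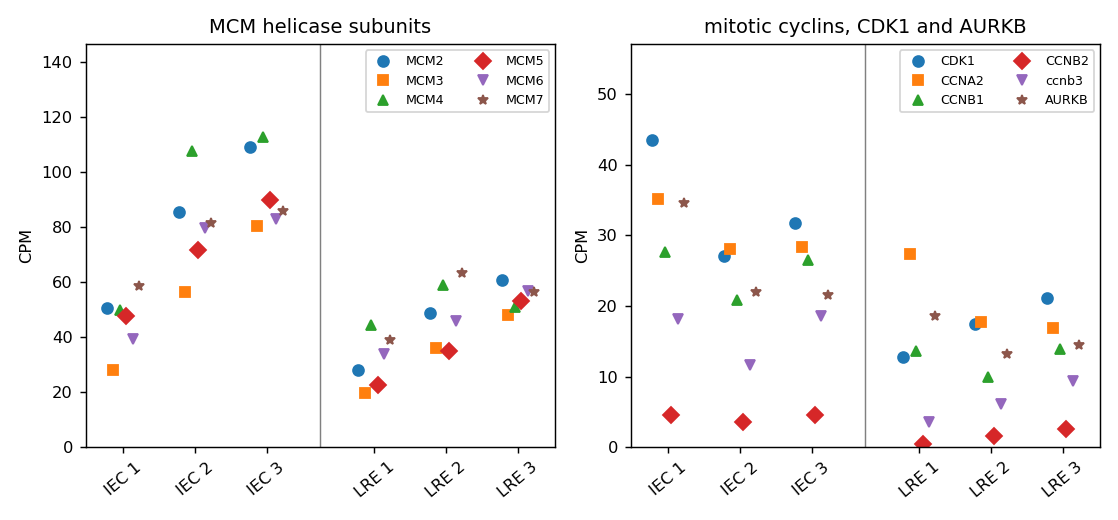
CPM (vertical axes) in each of the 6 libraries (horizontal axes) for the MCM subunits, with MCM6 as ENSDARG00000057683 (left), and for CDK1, the cyclin genes CCNA2, CCNB1, CCNB2 and ccnb3, and the mitotic kinase AURKB (right); each symbol is 1 gene. The MCM genes of IEC 1 lie near the LRE values, whereas CDK1, CCNA2 and AURKB have their highest value in IEC 1.

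PCNA, the clamp that holds polymerases on DNA, had the largest counts of the set. It measured 276, 199 and 219 CPM in IEC and 108, 147 and 128 CPM in LRE, in the order of the library numbers. The groups did not overlap, and unlike the MCM genes its highest value was in IEC 1. Its log2 fold change was -0.86 ± 0.28 (SE, 95% interval -1.49 to -0.23, edgeR adjusted p = 0.150; DESeq2 0.0389, and 0.0389 to 0.344 over all alternatives). GMNN encodes geminin, which blocks a second round of licensing in the same cycle. It had 13.9, 16.2 and 14.5 CPM in IEC and 2.84, 7.50 and 5.32 CPM in LRE, with tight IEC values and a log2 fold change of -1.51 ± 0.44 (SE, edgeR adjusted p = 0.116; alternatives 0.0121 to 0.275).

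The licensing factors CDC6 and ORC1 did not share this shape. CDC6, which helps load the helicase, had 4.11, 6.88 and 8.01 CPM in IEC and 10.7, 5.90 and 9.07 CPM in LRE. ORC1, the large subunit of the origin recognition complex, had 4.08, 8.57 and 9.56 CPM in IEC and 13.5, 6.25 and 6.32 CPM in LRE. For both, the lowest value was in IEC 1 and the highest in LRE 1, and the groups overlapped. Their log2 fold changes were 0.43 ± 0.45 and 0.23 ± 0.51 (SE), and with scaling by totals alone both turned to values below 0, -0.086 for CDC6 and -0.36 for ORC1.

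Genes of nucleotide supply had 1 member of 4 free of overlap, against 13.8% of all genes. RRM1, the large subunit of ribonucleotide reductase, which makes deoxynucleotides, had 36.2, 72.0 and 62.1 CPM in IEC and 22.1, 41.3 and 46.3 CPM in LRE, with a log2 fold change of -0.63 ± 0.37 (SE, edgeR adjusted p = 0.447). Only IEC 1 reached into the LRE range. RRM2 is the small subunit. Its row ENSDARG00000078069 had a log2 fold change of -0.28 ± 0.49, and its row ENSDARG00000020711 one of 0.49 ± 0.58 (SE, 95% interval -0.84 to 1.82; 0.0013 with scaling by totals alone), both with overlapping groups and no direction settled. TYMS encodes thymidylate synthase, the source of thymidine nucleotides. It had 24.5, 13.1 and 10.7 CPM in IEC and 1.91, 10.4 and 6.08 CPM in LRE, and its groups were separated by a narrow gap between IEC 3 and LRE 2 (log2 fold change -1.39 ± 0.62, SE, edgeR adjusted p = 0.302).

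Cyclins and their kinases were free of overlap in 7 of 8 members, against 13.8% of all genes. CCND1, or cyclin D1, which couples growth signals to entry into the cycle, had 97.5, 71.2 and 108.8 CPM in IEC and 51.4, 52.3 and 48.2 CPM in LRE. The LRE values lay close together, below all IEC values. Its log2 fold change was -0.87 ± 0.26 (SE, 95% interval -1.46 to -0.28, edgeR adjusted p = 0.125; alternatives 0.0358 to 0.333). CDK1, the kinase that drives mitosis, had 43.5, 27.1 and 31.8 CPM in IEC and 12.7, 17.4 and 21.1 CPM in LRE (log2 fold change -0.997 ± 0.32, SE, edgeR adjusted p = 0.148). Its mean was 34.1 CPM in IEC and 17.1 CPM in LRE.

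The cyclins that partner CDK1 lay lower too. CCNB1, or cyclin B1, had 27.7, 20.9 and 26.5 CPM in IEC and 13.6, 9.99 and 14.0 CPM in LRE. The value of ccnb3, which encodes cyclin B3, was 18.1, 11.6 and 18.6 CPM in IEC and 3.62, 6.05 and 9.40 CPM in LRE. These cyclin B genes were separated in every library, with log2 fold changes of -1.0 ± 0.30 for CCNB1 and -1.34 ± 0.45 for ccnb3 (SE). CCNB2, with 11 reads in LRE 1, had a log2 fold change of -1.52 ± 0.77. The change of CCNA2, which acts in S phase and early mitosis, was -0.56 ± 0.30, and that of CDK2, its partner in S phase, was -0.81 ± 0.41. Both were separated by a narrow gap only. For CCNA2 it lay between IEC 2 at 28.0 CPM and LRE 1 at 27.4 CPM. For CDK2 it lay between IEC 2 at 11.7 CPM and LRE 2 at 11.2 CPM. The one member with overlap was CCNE2, or cyclin E2, which acts at the start of S phase, at 3.86 to 7.97 CPM in IEC and 2.33 to 5.60 CPM in LRE (-0.83 ± 0.58).

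**Figure D4:**
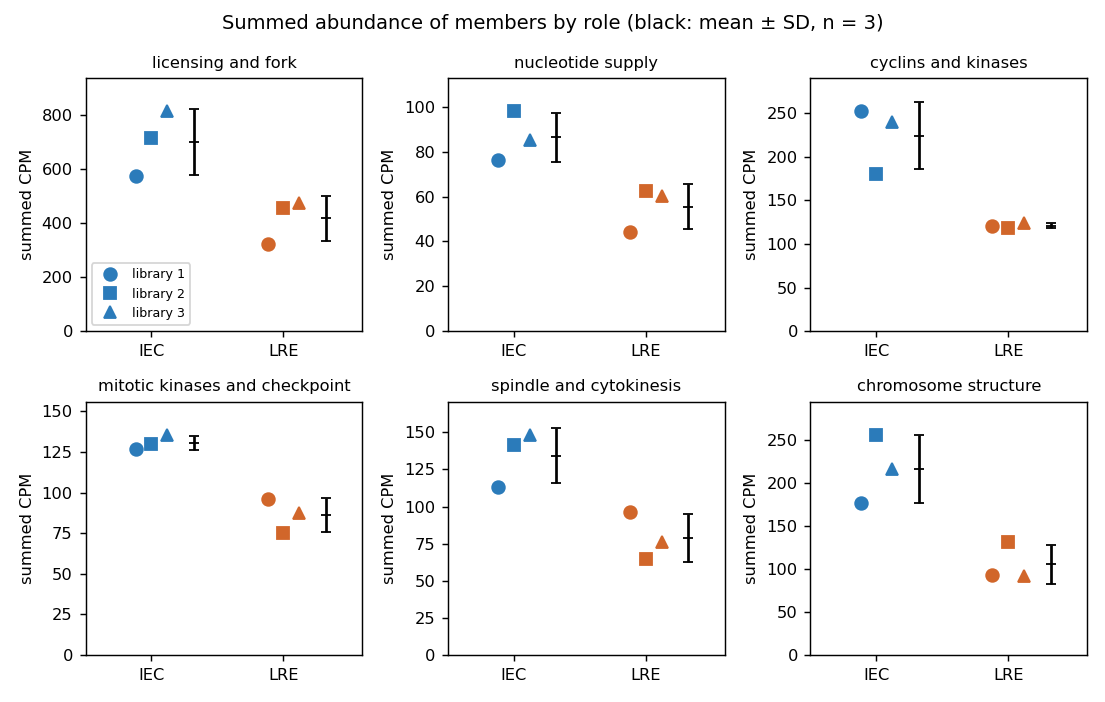
Summed CPM (vertical axes, from 0) of the members of each of the 6 role groups in the IEC and LRE libraries; symbols mark the library numbers and black marks give the mean ± SD (n = 3). In each panel all 3 LRE libraries lie below all 3 IEC libraries, with cyclins and kinases at 121 ± 2.78 CPM in LRE against 224 ± 38.4 CPM in IEC.

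Mitotic kinases and checkpoint genes lay lower too, with a median log2 fold change of -0.55 over 8 members, and 3 of the 8 did not overlap, against 13.8% of all genes. AURKB and cdca8 belong to the chromosomal passenger complex, which corrects faulty attachments of chromosomes. AURKB had 34.6, 22.0 and 21.5 CPM in IEC and 18.6, 13.2 and 14.5 CPM in LRE (log2 fold change -0.76 ± 0.32, SE, edgeR adjusted p = 0.276). The value of cdca8 was 17.6, 8.97 and 13.7 CPM in IEC and 5.77, 6.27 and 8.44 CPM in LRE (-0.97 ± 0.40, SE, edgeR adjusted p = 0.261). Both were separated, though IEC 2 lay only just above LRE 3 for cdca8. BIRC5, or survivin, the subunit that recruits the complex, lay lower in all 3 pairs with overlap between groups (-0.83 ± 0.51).

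The value of plk1, the Polo kinase, was 22.3, 46.9 and 40.3 CPM in IEC and 26.2, 24.6 and 26.0 CPM in LRE. IEC 1 lay below all LRE libraries, and the log2 fold change was -0.51 ± 0.32 (SE, edgeR adjusted p = 0.478). CDC20, the activator of the anaphase promoting complex, had 19.2 to 23.8 CPM in IEC and 11.6 to 21.6 CPM in LRE, where LRE 1 reached the IEC range (-0.42 ± 0.32). The checkpoint kinase genes bub1 (-0.45 ± 0.55) and bub1bb (-0.59 ± 0.65) had their lowest value of all libraries in IEC 1. The value of aurka, the kinase of the spindle poles, was 10.6 to 12.2 CPM in IEC and 6.05 to 10.3 CPM in LRE, with a narrow gap between the groups (-0.47 ± 0.37).

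Among the 5 spindle genes the groups were separate for 3, against 13.8% of all genes, and overlapped for the motors. TPX2, which activates Aurora A on spindle microtubules, had 37.9, 36.8 and 40.5 CPM in IEC and 24.0, 16.9 and 17.1 CPM in LRE. The groups did not overlap, and the SD was 1.89 CPM in IEC and 4.07 CPM in LRE. Its log2 fold change was -0.99 ± 0.27 (SE, 95% interval -1.61 to -0.38, edgeR adjusted p = 0.0953, DESeq2 0.0158, alternatives up to 0.260). CENPF, a kinetochore protein made late in the cycle, had 31.4, 25.8 and 19.6 CPM in IEC and 9.02, 8.94 and 15.8 CPM in LRE (-1.19 ± 0.36, SE). NUSAP1, which bundles spindle microtubules, was close to it at -1.18 ± 0.36. The motor gene kif11, whose product pushes spindle poles apart, had 16.2, 39.5 and 45.0 CPM in IEC and 30.2, 16.9 and 26.0 CPM in LRE (-0.46 ± 0.42), a value that ran from -0.80 without IEC 1 to -0.23 without IEC 3 and was -0.98 without both libraries numbered 1. KIF23, the motor of the midbody, had 10.2, 21.5 and 21.7 CPM in IEC and 27.8, 11.4 and 7.70 CPM in LRE, its highest value being in LRE 1, and its log2 fold change of -0.19 became 0.10 without LRE 3 and -0.90 without LRE 1.

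Genes of chromosome structure included the 2 members with the smallest p of the set. SMC4, an ATPase of condensin, the ring complex that compacts mitotic chromosomes, had 27.7, 35.9 and 34.3 CPM in IEC and 4.68, 14.4 and 10.7 CPM in LRE. The groups were far apart, with a log2 fold change of -1.71 ± 0.42 (SE, 95% interval -2.68 to -0.75, edgeR adjusted p = 0.0732). The adjusted p was 0.0325 with the replicate block, 0.0395 with limma voom and 0.00530 with DESeq2, and ran up to 0.204 over all alternatives. The marker of cycling cells mki67, or Ki-67, which coats mitotic chromosomes, had 91.3, 104.9 and 87.7 CPM in IEC and 29.0, 57.5 and 36.4 CPM in LRE. Its groups were also far apart (-1.21 ± 0.31, SE, 95% interval -1.91 to -0.50, edgeR adjusted p = 0.0808). That p was 0.0368 with the replicate block, 0.0119 with DESeq2 and up to 0.244 over all alternatives.

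TOP2A, the topoisomerase that untangles sister chromatids, had 30.8, 51.0 and 41.8 CPM in IEC and 28.2, 27.4 and 18.2 CPM in LRE. IEC 1 stood just above LRE 1, and the log2 fold change was -0.74 ± 0.31 (SE, edgeR adjusted p = 0.261). SMC2, the condensin partner of SMC4, had 15.7, 32.4 and 20.4 CPM in IEC and 17.6, 13.5 and 17.7 CPM in LRE, with a log2 fold change of -0.49 ± 0.35 (SE, edgeR adjusted p = 0.543) that ran from -0.70 without IEC 1 to -0.20 without IEC 2. Whether SMC4 and SMC2 differ from each other was not tested. NCAPG, a further condensin subunit, was at -0.85 ± 0.46 with IEC 1 inside the LRE range.

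**Figure D5:**
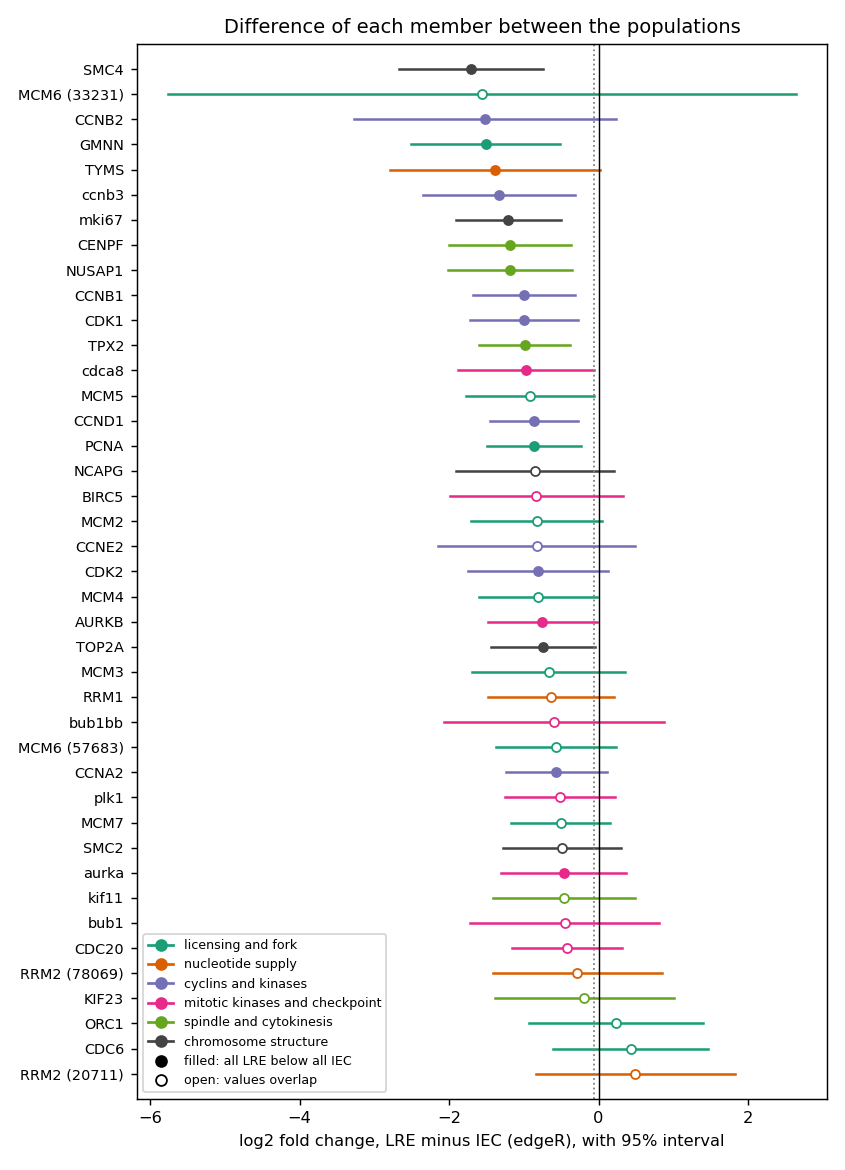
Log2 fold change of LRE minus IEC (horizontal axis) with its 95% interval for each of the 41 members (rows), coloured by role; filled points mark members in which all LRE values lie below all IEC values, and the dotted line is the median of all genes tested. The points run from SMC4 at -1.71 to an RRM2 row at 0.49, and 3 members lie above 0.

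Other genes of replication and division were taken from 11 textbook lists that share no gene with the members. Of their 215 rows, 210 were tested, and 0 were higher and 0 lower in LRE by edgeR's adjusted p, while 30 were lower and 7 higher at an unadjusted p under 0.05, against 7.19% and 9.79% of all genes. DESeq2 called 12 lower and 5 higher, against 4.33% and 5.98% of all genes. The log2 fold change was below 0 in 179 of the 210, or 85.2% against 53.0% of all genes, with a median of -0.60. Their summed abundance did not follow, at 6743 ± 251 CPM in IEC and 6932 ± 727 CPM in LRE (mean ± SD, n = 3), of which the brakes made up 2872 and 3946 CPM. The groups were separated downward in 61 of them, or 29.0%, against 13.8% of all genes.

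The fork, kinetochore and spindle lists had median log2 fold changes below 0, as the members did. In the list of the replication fork and chromatin copying, 27 of 28 genes had a log2 fold change below 0 (median -0.68), and 12 did not overlap, against 53.0% and 13.8% of all genes. Its most abundant gene, RPA1, which coats single-stranded DNA, was at -0.39 ± 0.32 (SE). LIG1, the ligase that joins Okazaki fragments, chosen after its values were seen, had 56.4, 23.5 and 34.3 CPM in IEC and 8.82, 15.7 and 13.5 CPM in LRE (-1.58 ± 0.40, SE, edgeR adjusted p = 0.0755; DESeq2 0.00860, alternatives up to 0.204). In the kinetochore and checkpoint list 22 of 22 tested genes were below 0 (median -0.77) and in the list of spindle motors and cytokinesis 22 of 22 (median -0.78). The groups did not overlap for 8 of these kinetochore genes. For the spindle list it was 3, or 13.6%, near the 13.8% of all genes. At an unadjusted p under 0.05 (edgeR), 9.09% of the spindle list was lower, against 7.19% of all genes. BUB3, a checkpoint protein, and KPNA2, an importin, were their most abundant genes, at -0.61 ± 0.34 and -0.47 ± 0.33 (SE).

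Origin firing, cohesin and condensin, and the anaphase promoting complex lay lower as well, with medians of -0.90 over 17 genes, -0.68 over 22 and -0.52 over 15. Their most abundant genes were MCMBP, which binds MCM subunits (-0.08 ± 0.27), rad21a, a cohesin subunit (-0.27 ± 0.27), and FZR1, an activator of the anaphase promoting complex (-0.32 ± 0.29, SE). Medians were -0.44 over 25 transcription factors of the E2F, RB, MYB-MuvB and MYC families, where mych was the most abundant (-0.20 ± 0.27). They were -0.57 over 16 genes of replication stress and repair, where a GADD45A row was the most abundant (1.24 ± 0.36) and the mean summed level was 362 CPM in IEC and 430 CPM in LRE, and -0.53 over 16 further cyclins and kinases, where it was WEE1 (-0.25 ± 0.31, SE), a brake on CDK1.

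The lists of nucleotide synthesis and of cell cycle brakes were mixed. For nucleotide synthesis the median was -0.35, and 8 of 14 genes were below 0, against 53.0% of all genes, while the summed level was 297 CPM in IEC and 352 CPM in LRE (means). Its most abundant gene was IMPDH2, which makes guanine nucleotides for RNA as well as DNA. It had 47.2, 54.3 and 38.7 CPM in IEC and 98.6, 84.9 and 101.3 CPM in LRE, the opposite direction to the members, with all LRE values above all IEC values (1.02 ± 0.25, SE, edgeR adjusted p = 0.0723; DESeq2 0.00958, alternatives up to 0.419).

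For the brakes, a list of kinase inhibitors and antiproliferative genes, the median was 0.23, with 5 of 13 genes below 0, but with scaling by totals alone it was -0.14, with 8 of 13 below 0. CCNG1, its most abundant gene, was at 0.10 ± 0.34 (SE). Chosen after its values were seen, TOB1, an antiproliferative protein, had 246, 190 and 247 CPM in IEC and 413, 415 and 578 CPM in LRE (1.04 ± 0.30, SE, edgeR adjusted p = 0.112; DESeq2 0.0132, alternatives up to 0.418). Of the 13 brakes, CDKN2C had the lowest log2 fold change, -2.45. All LRE values lay above all IEC values in 3 of the 13, against 13.0% of all genes. They lay below all IEC values in 4 of the 13, or 30.8%, against 13.8% of all genes. Among those 4 was cdkn1ca, a cyclin kinase inhibitor, also chosen after its values were seen. It had 24.7, 28.9 and 23.3 CPM in IEC and 8.92, 11.9 and 5.86 CPM in LRE (-1.53 ± 0.35, SE, edgeR adjusted p = 0.0567). That p was 0.0331 with the replicate block and ran from 0.00148 to 0.165 over the alternatives.

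Several marker lists, of enterocytes and of other cells, lay lower in LRE together with the members. The enterocyte list had 9 of 11 rows below 0 (median -0.71), against 53.0% of all genes. Of these rows 1, FABP2, was lower by the adjusted p, against 0.910% of all genes. Its summed level was 7535 to 10799 CPM in IEC and 4816 to 6781 CPM in LRE. Of 10 tested marker rows of enteroendocrine cells 3 were lower in LRE by the adjusted p, against 0.910% of all genes. Their log2 fold change was below 0 in 9, against 53.0% of all genes. The summed level was 23790, 4301 and 4964 CPM in IEC 1, 2 and 3, and 2621, 727 and 281 CPM in LRE 1, 2 and 3. The leukocyte list had 6 of 6 genes below 0, against 53.0% of all genes, none passing, at 149 to 378 CPM in IEC and 56.1 to 108 CPM in LRE. Among intestinal progenitor markers, ascl1a, a transcription factor, had 75.5 to 145 CPM in IEC and 18.0 to 49.8 CPM in LRE (-2.04 ± 0.47, SE, edgeR adjusted p = 0.0584; alternatives 0.00235 to 0.191), and none of the 7 tested rows passed. That list was mixed, with a median of -0.18 and 3 of its 7 rows above 0 (LGR4, lgr6 and a PROM1 row). The list of goblet cell markers had 2300, 1014 and 1053 CPM in IEC 1, 2 and 3, and 847, 764 and 223 CPM in LRE 1, 2 and 3. Lists of best4 cells and exocrine pancreas also had medians below 0 (-1.37 and -0.46), but their sums were mixed in direction. The log2 ratios of the sums by pair were 0.24, -1.33 and -0.87 for best4 cells. For exocrine pancreas they were -3.15, 0.20 and 0.26. The erythroid list was mixed, with 3 of 5 tested rows above 0. Other lists lay the opposite way, also with scaling by totals alone. The log2 fold change was above 0 in 8 of 8 hepatocyte and 6 of 7 skeletal muscle rows. It was also above 0 in 4 of 4 endothelium and 7 of 10 neuron and glia rows. By totals alone these counts were 8, 6, 3 and 7. Only the neuron row SNAP25 was higher by the adjusted p, against 2.30% of all genes. The mean summed neuron and glia level was near equal, at 451 CPM in IEC and 449 CPM in LRE. All 6 epidermis markers were above 0, where 53.0% of all genes were below 0. Of them 2 were higher by the adjusted p, against 2.30% of all genes. Their summed levels were 5817 to 9271 CPM in IEC and 12332 to 18737 CPM in LRE. Of 11 fibroblast and smooth muscle markers 10 were above 0 (8 of 11 by totals alone), at 964 to 1602 CPM in IEC and 2773 to 3795 CPM in LRE. Lists of RNA and tissue quality also had medians below 0. Of 17 ribosomal protein genes 16 were below 0 (median -0.47), against 53.0% of all genes, but 0 were lower in all 3 pairs, against 26.6%. Their summed level was 25992, 7035 and 8677 CPM in IEC 1, 2 and 3, and 12661, 8028 and 10417 CPM in LRE 1, 2 and 3. IEC 1 thus held the highest level, and the log2 ratios of the sums by pair were -1.04, 0.19 and 0.26. Of 12 dissociation response genes 8 were below 0 (median -0.36). The part of these cells and of RNA quality in the result was not tested. Of 5 germ cell markers, NANOS3 was at 0 in all libraries and DDX4 was at 0 in the LRE libraries.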

How the data were processed

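RNA was measured in 3 IEC and 3 LRE libraries, grouped by their titles. Per the submitters' processing notes, the tools were HISAT2 and HTSeq and the build GRCz10; their versions, the annotation release and the strand mode were not given in the sources used here. Each library has 1 deposited file of whole-number read counts by Ensembl gene, with 0 rows that name no gene. Reads of paralogs, overlapping and antisense genes may be split or shared. Library amplification from low input can widen the spread between libraries. The floor of 3 counts covers counting error only, whereas the 95% intervals come from the fit and include the scatter between libraries.

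Symbols came from a table of 29201 identifiers. Genes were filtered with filterByExpr (minimum count 10, minimum total 15; 20979 kept of 28129 with a read) and compared with edgeR 4.0.16 in R 4.3.3 (TMM factors 0.692 to 1.40, quasi-likelihood F test, Benjamini-Hochberg adjustment over all genes tested). A log2 fold change is LRE minus IEC, and its SE was obtained as the absolute log2 fold change over the square root of F. CPM uses the TMM-scaled library total. The scripts were tested on simulated data with a smaller spread and larger changes than those of the members. That test does not show how well changes of the members' size are found. The biological coefficient of variation was 0.651.

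Alternatives were RLE and upper-quartile factors, totals alone, DESeq2 1.42.0, limma voom (3.58.1), no filter, a filter of 1 CPM or more in 3 libraries, thinning to the smallest total, exact spelling, a replicate block, and leaving out each library or both numbered 1. Equal replicate numbers deviated together (Pearson's r across genes 0.217, 0.238 and 0.188, against -0.194 to 0.0136 otherwise). Libraries of equal number were therefore paired in the counts and ratios by pair and in the replicate block. The main fit used no pairing. The labels do not state a pairing. Deviations were taken from the mean of each group, so these coefficients depend on each other. Named by rule were, in each role group, the 2 members of highest CPM and those of largest and smallest log2 fold change, and of every other list the most abundant gene. For some of them only part of the statistics is printed. Further members were chosen after their values were seen. The members and lists were chosen with earlier results of these data known.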

Additional observations from a re-analysis of the deposited data

How the results depend on the processing

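With 3 libraries per group and a wide spread between them, differences near 2-fold were hard to call, so the absence of a call for a member does not show equal levels. The members' median log2 fold change was below 0 under all 15 alternative fits and for the 8 members of exact spelling (-0.55), and was -1.20 with scaling by totals alone, where the log2 ratio of the summed abundances was also -1.20 against -0.79. Over the leave-outs of 1 library that median ran from -0.84 to -0.66, no member passed in any of them, and the lowest adjusted p of any member was 0.0650 (without LRE 2). No member was called higher in any fit. The number called lower was 9 with DESeq2, 1 with limma voom and 2 with the replicate block (paired fit), and 0 in all others. Of all genes, DESeq2, limma voom and the block called 4.33%, 1.38% and 1.75% lower, and 5.98%, 2.89% and 3.76% higher. For the 23 members named by rule, 344 alternative values were compared. Of these values, 332 kept direction and call, 9 became calls (DESeq2, limma voom or the block) and 3 turned sign. Those 3 were CDC6 with scaling by totals alone (-0.086), the low MCM6 row with limma voom (0.0033) and KIF23 without LRE 3. KIF23 ran from -0.90 (without LRE 1) to 0.10 (without LRE 3) over the leave-outs of 1 library. Without both libraries numbered 1, TYMS was at -0.54, CDK1 at -0.61 and CDC20 at -0.76. The causes were not tested.

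Over all genes, edgeR called 483 higher and 191 lower. The counts were 1316 and 952 with DESeq2, 789 and 367 with the replicate block, 606 and 290 with limma voom, 137 and 182 with totals alone, where lower calls outnumbered higher ones, and 251 and 144 without both libraries numbered 1, and leaving out 1 library gave 146 to 419 higher and 28 to 261 lower. Of the 210 other pathway genes tested, 0 passed in the main fit. DESeq2 called 5 higher and 12 lower, against 5.98% and 4.33% of all genes. Limma voom and the block each called 1 lower, against 1.38% and 1.75% of all genes. The fit without both libraries numbered 1 called 1 higher. Leave-outs of 1 library gave 0 to 1 in each direction (dhfr higher without IEC 1, ncaph2 lower without LRE 2). The counts without overlap, computed without some libraries, were added after seeing the data.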
